A study of Capra hircus with 6 samples.

Results

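Retinoid signalling in the pineal gland was examined through 9 genes that carry, convert or sense vitamin A, namely RBP4, STRA6, CRABP1, CRABP2, DHRS3, ALDH1A1, ALDH1A2, RARA and RARB. The genes were chosen by name, each matched 1 row among the 28244 genes of the deposited count table, and all 9 passed the filter on low counts that left 16588 genes for testing. RNA had been sequenced from pineal glands of untreated female goats (Capra hircus) at prepuberty and at puberty, with 3 libraries per stage. An inflamed vulva and mature follicles in ovarian sections marked the pubertal animals, per the series description. Ages, breed and the number of animals behind a library are not given in the sources used here, so p-values measure the spread between libraries, which may in part be technical.

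Vitamin A travels in blood as retinol bound to retinol-binding protein 4 and transthyretin, and the membrane receptor STRA6 takes it into cells. Inside the cell retinol is oxidised reversibly to retinal, DHRS3 works in the direction back to retinol, and the retinal dehydrogenases ALDH1A1 and ALDH1A2 make retinoic acid irreversibly. CRABP1 and CRABP2 bind retinoic acid in the cytosol, where CRABP2 is known to deliver it to the nuclear retinoic acid receptors and CRABP1 is linked to its degradation. The receptors RARA and RARB pair with retinoid X receptors on DNA and exchange corepressors for coactivators when the ligand binds. The pineal gland, which secretes melatonin, also shares with the retina a set of genes that handle retinal for light detection.

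Libraries held 18864451 to 20971065 counts. All 17 pinealocyte markers were measured, and their summed level was 9549 to 11350 CPM (counts of a gene scaled to the library total) in prepuberty and 11274 to 12240 CPM in puberty. Puberty replicate 2 stood apart in choroid plexus transcripts, with a summed level of 10863 CPM against 712 to 1088 CPM in the other 5 libraries. TTR made up 10089 CPM of that sum, and without TTR the list summed to 774 CPM against 542 to 653 CPM. Most of that remainder was OTX2, which is also on the pinealocyte list, at 567 CPM against 450 to 573 CPM. KL, KCNJ13 and SLC5A5 were also highest there, at 42.8, 84.8 and 15.3 CPM against at most 3.49, 4.96 and 1.72 CPM elsewhere. SLC4A5 was at its lowest there, 21.2 CPM. Short genes as a group were higher and long genes lower in puberty (rho -0.28 by Spearman's method between length and fold change over the 16588 tested genes, a description only). Values with offsets that remove this trend are therefore given beside some of the results. A result without them may also be touched by the trend.

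The 9 genes lay far apart in abundance. On the authors' FPKM scale, which divides by gene length, RBP4 was highest with a mean of 774 ± 152 FPKM (SD over all 6 libraries), above 99.4% of the tested genes. CRABP2 followed with 393 ± 124 FPKM and stood above 98.5% of them. The receptor gene RARA came next at 37.3 ± 2.4 FPKM, and STRA6 was at 19.96 ± 1.2 FPKM. These first 4 genes kept separate ranges over the 6 libraries. Below them DHRS3 was at 13.3 ± 4.3 FPKM, CRABP1 at 9.35 ± 2.6 FPKM and RARB at 6.83 ± 1.0 FPKM. The dehydrogenase genes were lowest, ALDH1A1 at 3.20 ± 1.2 FPKM and ALDH1A2 at 2.96 ± 0.73 FPKM, above 25.4% and 24.0% of the tested genes. From STRA6 down, each gene's range overlapped that of its neighbour in this order, although RARB exceeded ALDH1A1 in all 6 libraries. ALDH1A1 exceeded ALDH1A2 in only 2 of 6 libraries. The listed lengths of RBP4 (612 nt), RARA, STRA6 and RARB are multiples of 3, and a gene model without untranslated regions would raise a gene's FPKM and its place in this order.

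In puberty, CRABP2 and DHRS3 rose and 0 of the 9 genes fell by edgeR's quasi-likelihood test at an adjusted p under 0.05. That test called 11.5% of all tested genes, and 2 of 9 are too few genes to set apart from that background. At an unadjusted p under 0.05, 3 of the 9 were higher and 1 was lower, where 29% of all tested genes passed in either direction. DESeq2 also called 2 higher and 0 lower, against 17.5% of all genes to which it gave an adjusted p. CRABP1 differed in the opposite direction from its paralog CRABP2 and ALDH1A1 in the same direction as CRABP2, each without overlap between the groups and without passing the adjusted threshold. Together 4 of the 9 genes had groups that did not overlap, beside 34.8% of all tested genes. The median log2 fold change of the 9 genes was 0.18, and that of all tested genes was 0.01. In whole glands, more cells of a type and more RNA per cell cannot be told apart.

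**Figure D1:**
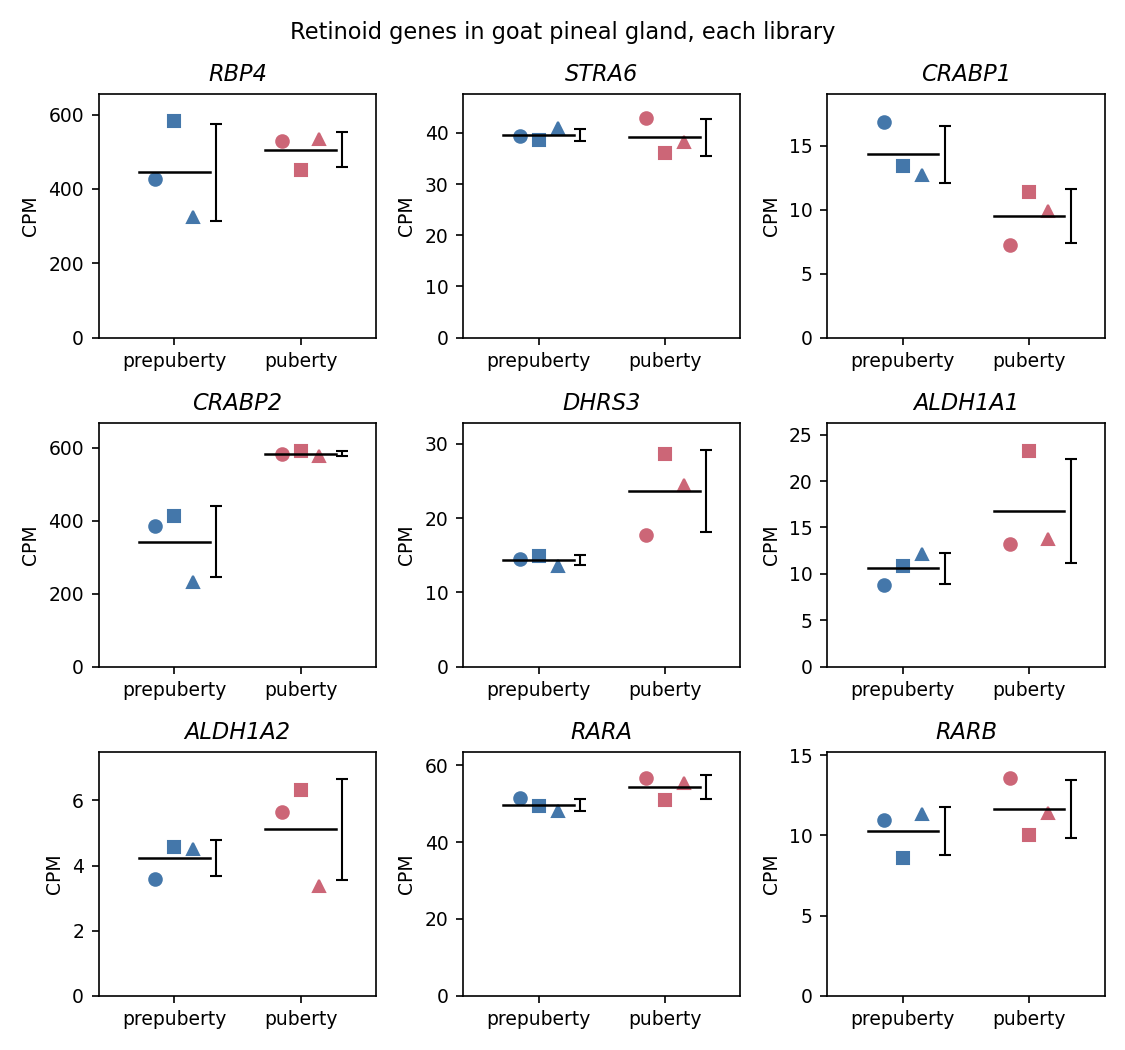
CPM (vertical axes, from 0) of the 9 retinoid genes in each prepuberty (blue) and puberty (red) library, with circles, squares and triangles for replicates 1, 2 and 3, horizontal bars for group means and error bars for 1 SD. The groups separate for CRABP1, CRABP2, DHRS3 and ALDH1A1, and overlap for RBP4, STRA6, ALDH1A2, RARA and RARB.

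The blood carrier gene RBP4, on chromosome 26 (36492171 to 36498154, plus strand, positions as the authors' table lists them), was at 428, 584 and 324 CPM in prepuberty and 529, 451 and 535 CPM in puberty. All 3 puberty values lay inside the prepuberty range. The log2 fold change was 0.18 (95% interval -0.28 to 0.64, adjusted p = 0.59), and with length offsets it was 0.03. Leaving out prepuberty replicate 2, the highest library, gave 0.44, and leaving out prepuberty replicate 3, the lowest, gave 0.01. STRA6, the receptor that takes up retinol from RBP4, on chromosome 21 (33927665 to 33949951, plus strand), was the steadiest of the set together with RARA. Its levels were 39.3, 38.6 and 40.9 CPM in prepuberty and 43.0, 36 and 38.3 CPM in puberty. The log2 fold change was -0.02 with a 95% interval of -0.24 to 0.21 (adjusted p = 0.92), and its sign turned without prepuberty replicate 3 or puberty replicate 2.

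TTR, the transthyretin that accompanies RBP4 in plasma and is made in large amounts by the choroid plexus, behaved differently from both. It stood at 88.5, 75.3 and 317 CPM in prepuberty and at 464, 10089 and 206 CPM in puberty. The groups overlapped, and 1 puberty library held nearly all of the difference. The fold was 22.4 with all libraries (log2 fold change 4.48, SE 1.9, adjusted p = 0.21) and 2.09 without puberty replicate 2. In that same library RBP4, at 451 CPM, and STRA6, at 36 CPM, were the lowest of their group.

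CRABP2, on chromosome 3 (105983380 to 105989221, minus strand), had levels of 385, 412 and 231 CPM in prepuberty and 582, 590 and 577 CPM in puberty. Every puberty library exceeded every prepuberty one, and the 3 puberty values were nearly identical while prepuberty replicate 3 was low. The gene rose 1.70-fold, from 343 ± 98 to 583 ± 6.4 CPM (mean ± SD of 3 libraries each), a log2 fold change of 0.77 with an SE of 0.20 (edgeR adjusted p = 0.048). The call lay close to the threshold. With length offsets the log2 fold change was 0.71 (adjusted p = 0.072), and with single libraries left out it ran from 0.56 to 0.93. It passed without prepuberty replicates 2 or 3 (adjusted p = 0.048 and 0.043) and did not pass without prepuberty replicate 1 or puberty replicates 1, 2 or 3 (adjusted p = 0.096, 0.11, 0.12 and 0.095). CRABP2 is also known from fibroblasts of the meninges. The 17 measured fibroblast and meninges markers had a summed level of 742 to 1002 CPM in prepuberty and 697 to 896 CPM in puberty, overlapping ranges, with 1 marker lower (SLC47A1) and 0 higher. Over all tested genes 11.5% were called. At an unadjusted p under 0.05, 2 markers were lower (SLC47A1 and PDGFRA) and 0 higher (29% of all tested genes). By DESeq2 1 was lower and 0 higher (17.5%). Their part in the CRABP2 result was not tested. ASGR2 of that list had 0 counts in all libraries.

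CRABP1, on chromosome 21 (30346462 to 30354004, plus strand), showed the reverse picture at a much lower level. Its counts were 328, 274 and 244 in prepuberty and 147, 212 and 200 in puberty, or 16.9, 13.5 and 12.7 CPM against 7.22, 11.4 and 9.92 CPM. The lowest prepuberty library stood just above the highest puberty library. The log2 fold change was -0.59 (95% interval -1.05 to -0.14, unadjusted p = 0.016, adjusted p = 0.087), so the gene did not pass. It did not pass in any of the 15 alternatives either, with adjusted p-values from 0.052 to 0.28, and its fold change stayed negative in all of them.

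The balance of the binding proteins was followed as the log2 ratio of CRABP2 to CRABP1 within each library, which does not depend on scaling between libraries. The ratio was 4.51, 4.93 and 4.17 in prepuberty and 6.31, 5.69 and 5.85 in puberty. The groups did not overlap, and the mean went from 4.54 ± 0.38 to 5.95 ± 0.33, a difference of 1.41 or 2.66-fold. The two-sided exact permutation p was 0.1, the smallest that 3 against 3 libraries allow, and 0.25 after adjustment over the 5 pairs compared. In FPKM, per length, CRABP2 exceeded CRABP1 19.7-fold to 33.1-fold in prepuberty libraries and 56.1-fold to 87.1-fold in puberty libraries.

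**Figure D2:**
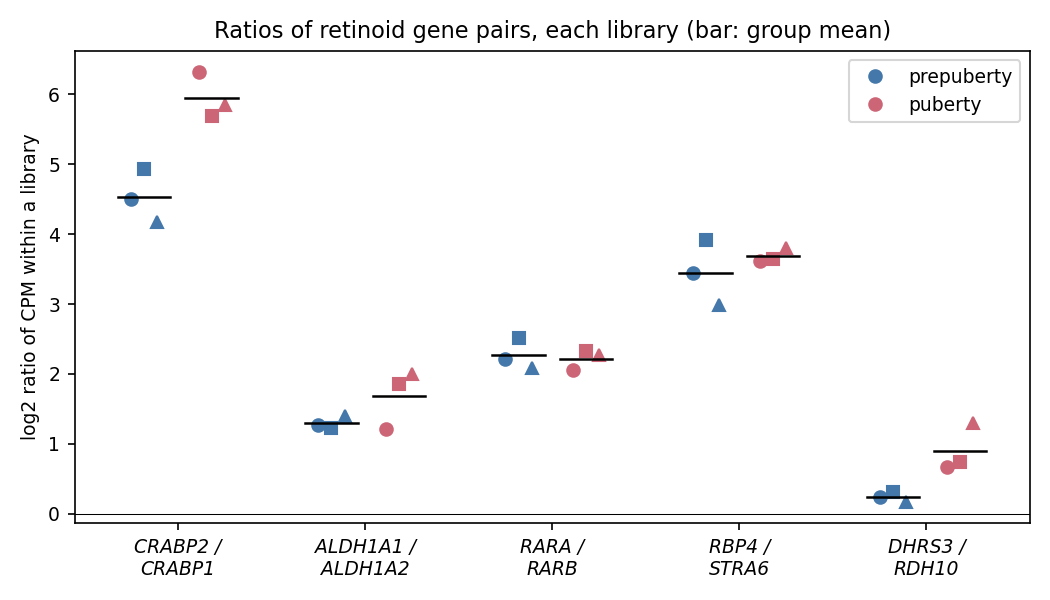
Log2 ratio of CPM within each library (vertical axis) for the 5 gene pairs, with prepuberty in blue, puberty in red, circles, squares and triangles for replicates 1, 2 and 3, and bars for group means. Groups separate for CRABP2 to CRABP1 (4.54 against 5.95) and for DHRS3 to RDH10 (0.24 against 0.90) and overlap for the other 3 pairs.

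DHRS3, which encodes a reductase that turns retinal back into retinol and is itself raised by retinoic acid in other species, lies on chromosome 16 (39604096 to 39653455, plus strand). It was at 14.5, 14.97 and 13.6 CPM in prepuberty and at 17.8, 28.7 and 24.5 CPM in puberty. Prepuberty values were tight, and puberty replicate 1 was much closer to them than the other puberty libraries were. The gene rose 1.65-fold, from 14.3 ± 0.72 to 23.6 ± 5.5 CPM (mean ± SD of 3 libraries each), a log2 fold change of 0.72 with an SE of 0.17 (edgeR adjusted p = 0.034). With length offsets it kept its call by a narrow margin (log2 fold change 0.70, adjusted p = 0.0498). With 1 library left out it passed only without puberty replicate 1 (log2 fold change 0.89, adjusted p = 0.032), and in the other 5 such fits adjusted p-values ran from 0.069 to 0.11 with positive fold changes throughout. The smallest log2 fold change was 0.56 (adjusted p = 0.095), without puberty replicate 2, the library with the high choroid plexus transcripts. DHRS3 was highest in that library, and the part of those transcripts in its value was not tested.

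Summed markers of microglia and macrophages were also higher in puberty replicates 2 and 3 than elsewhere, but replicate 3 was highest and the groups overlapped. Their 11 genes summed to 156, 192 and 137 CPM in prepuberty and to 177, 294 and 311 CPM in puberty. All 11 had positive fold changes, as had 8396 of all 16588 tested genes. At an unadjusted p under 0.05, 7 were higher and 0 lower (29% of all genes in either direction). By DESeq2 6 were higher and 0 lower (17.5%). By edgeR 1 was called (11.5%), TYROBP, which rose 2.22-fold (adjusted p = 0.041, or 0.087 with length offsets). With 1 library left out TYROBP passed only without puberty replicate 1 (adjusted p = 0.032). Their part in the DHRS3 result was not tested. RDH10, whose enzyme oxidises retinol to retinal and so works against DHRS3, had a log2 fold change of 0.07 (95% interval -0.40 to 0.53, adjusted p = 0.86). The log2 ratio of DHRS3 to RDH10 was 0.24, 0.31 and 0.17 in prepuberty and 0.67, 0.75 and 1.29 in puberty. It differed by 0.66 without overlap (exact permutation p = 0.1, the smallest possible, adjusted p = 0.25 over 5 pairs).

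ALDH1A1, on chromosome 8 (48840704 to 48897982, minus strand), was at 8.79, 10.8 and 12.1 CPM in prepuberty and 13.3, 23.2 and 13.7 CPM in puberty. The groups did not overlap, but the gap was narrow apart from puberty replicate 2. The log2 fold change was 0.66 (95% interval 0.12 to 1.2, unadjusted p = 0.022, adjusted p = 0.11), and it was 0.35 without puberty replicate 2, the library with the high choroid plexus transcripts. The part of those transcripts in the value was not tested. Astrocytes are another known site of ALDH1A1, and the 9 astrocyte markers summed to 4232 to 5844 CPM in prepuberty and 6258 to 6471 CPM in puberty. Of these 9 markers edgeR called 2 higher and 0 lower (11.5% of all tested genes). At an unadjusted p under 0.05, 4 were higher and 1 lower (29%), and by DESeq2 3 were higher and 1 lower (17.5%). The called markers were ALDH1L1, which rose 1.53-fold, and ALDOC, which rose 1.29-fold (adjusted p = 0.017 and 0.044, or 0.024 and 0.054 with length offsets). Their part was not tested either. The other markers did not move as one, since 4 of the 9 had negative fold changes, among them AGT at -1.11 on the log2 scale (unadjusted p = 0.032, adjusted p = 0.13). GFAP, with 2646 ± 662 CPM before puberty and 3767 ± 204 CPM at puberty, and ALDOC made up most of the sums. The median over the list of each gene's log2 deviation from its own mean overlapped between the groups, at -0.22, 0.13 and -0.25 in prepuberty and -0.13, 0.15 and 0.18 in puberty. ALDH1L1 lost its call without prepuberty replicates 1 or 3 or puberty replicate 2 (adjusted p = 0.064, 0.055 and 0.054), and ALDOC kept it only without prepuberty replicate 2 (adjusted p = 0.046).

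ALDH1A2, on chromosome 10 (50841397 to 50957152, minus strand), rested on 68 to 118 counts per library. It was at 3.60, 4.57 and 4.52 CPM in prepuberty and 5.65, 6.32 and 3.37 CPM in puberty, and puberty replicate 3 was the lowest of all 6. Its log2 fold change of 0.27 had a 95% interval of -0.36 to 0.90 (adjusted p = 0.56), and no difference beyond the spread between libraries was detectable at this depth. The log2 ratio of ALDH1A1 to ALDH1A2 had group means of 1.30 ± 0.090 and 1.69 ± 0.42, which overlapped (exact permutation p = 0.4). The related gene ALDH1A3 was at 3.42 ± 0.41 and 3.37 ± 0.60 CPM (log2 fold change -0.02, adjusted p = 0.97, with a sign that turned with length offsets and in 4 of 6 fits without 1 library).

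RARA, on chromosome 19 (40219860 to 40241118, plus strand), was at 51.4, 49.4 and 48.2 CPM in prepuberty and 56.7, 50.9 and 55.4 CPM in puberty. The groups met at their edges, where puberty replicate 2 lay below prepuberty replicate 1. The log2 fold change was 0.13 with a narrow 95% interval of -0.07 to 0.33 (adjusted p = 0.37). RARB, on chromosome 27 (5262988 to 5443719, plus strand) and a known target of retinoic acid in other species, was at 10.95, 8.59 and 11.3 CPM in prepuberty and 13.6, 10.02 and 11.4 CPM in puberty, with a log2 fold change of 0.18 (95% interval -0.22 to 0.59, adjusted p = 0.54). Its groups overlapped broadly. The log2 ratio of RARA to RARB had means of 2.27 and 2.22 (exact permutation p = 0.9), and that of RBP4 to STRA6 had means of 3.45 and 3.69 (exact permutation p = 0.5).

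**Figure D3:**
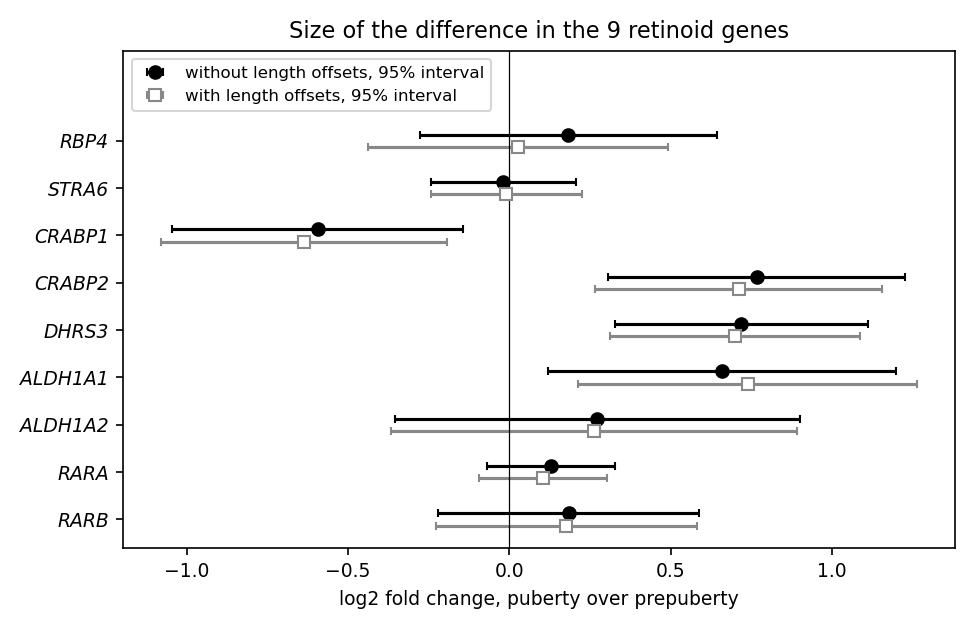
Log2 fold change of puberty over prepuberty (horizontal axis) for the 9 genes, with 95% intervals, from edgeR without length offsets (black circles) and with them (open grey squares). CRABP2 at 0.77 and DHRS3 at 0.72 lie to the right, CRABP1 at -0.59 to the left, and the offsets move RBP4 most, from 0.18 to 0.03.

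The other genes of the pathway were read from lists that held 79 further genes, 66 of them with a symbol in the table and 51 of them tested. Of these 51, 1 rose and 7 fell, where 5.85% and 5.64% of all tested genes were called higher and lower. Their median log2 fold change was 0.06. Of the 7 falls 6 were cofactors of nuclear receptors, which bind many receptors besides those for retinoids.

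In the list of receptors and cofactors 16 genes were tested, with 1 called higher, 6 called lower and a median log2 fold change of -0.22. The coactivator gene NCOA3 fell 1.58-fold, from 34.6 ± 1.7 to 21.8 ± 2.7 CPM (log2 fold change -0.66, SE 0.12, adjusted p = 0.015). Its paralogs NCOA2 and NCOA1 fell 1.38-fold and 1.32-fold (adjusted p = 0.015 and 0.031). The acetyltransferase genes EP300 and CREBBP fell 1.34-fold and 1.32-fold (adjusted p = 0.017 and 0.016), and NRIP1, which encodes a corepressor that ligand-bound receptors recruit, fell 1.40-fold (adjusted p = 0.039). NR2F6, an orphan nuclear receptor gene, rose 1.35-fold (adjusted p = 0.047). The corepressor gene NCOR1 differed by -0.27 on the log2 scale (adjusted p = 0.063), and MED1, of the Mediator complex, had -0.31 (adjusted p = 0.069).

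These cofactor genes are long, with a list median of 4716 nt against 1903 nt for all tested genes, and 21.9% of genes over 7000 nt were called lower. Of those called lower, NCOA2, EP300 and CREBBP exceed 7000 nt, while NCOA1, NCOA3 and NRIP1 are at 4706, 4726 and 3471 nt. With length offsets, which called 5.24% of all genes, only NCOA3 kept its call (log2 fold change -0.58, adjusted p = 0.036). NCOA2 went from -0.46 to -0.20 (adjusted p = 0.23), CREBBP from -0.40 to -0.21 (adjusted p = 0.16), EP300 from -0.42 to -0.25 (adjusted p = 0.11) and NCOA1 from -0.40 to -0.31 (adjusted p = 0.089). NRIP1 and NR2F6 had adjusted p-values of 0.089 and 0.083 with these offsets. Of the genes not called, NCOR1, at 7401 nt, went from -0.27 to -0.10 (adjusted p = 0.50). MED1, at 4734 nt, went from -0.31 to -0.22 (adjusted p = 0.21). With single libraries left out, NCOA1 and NRIP1 lost their calls in all 6 fits and NR2F6 in 5, all but the one without puberty replicate 3. NCOA3 lost its call without prepuberty replicates 1 or 3 (adjusted p = 0.064 and 0.052), NCOA2 without prepuberty replicate 1 (adjusted p = 0.064), and EP300 and CREBBP without prepuberty replicate 1 (0.070 and 0.067) or puberty replicate 2 (0.052 and 0.051). Without prepuberty replicate 1 edgeR called 0 of the 51 genes in either direction, as it did for all genes (3924 of them at an unadjusted p under 0.05). CRABP2 and DHRS3, at 1175 and 1421 nt, lay below the median length of tested genes.

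**Figure D4:**
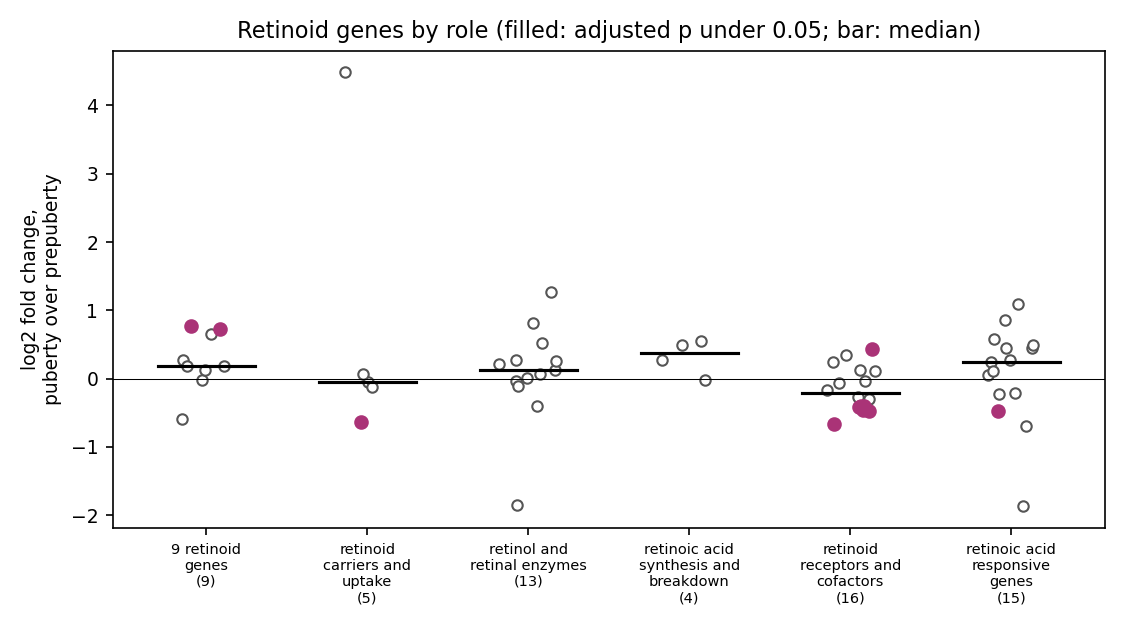
Log2 fold change of puberty over prepuberty (vertical axis) for the tested retinoid genes by role, the 9 genes first and then the other lists without them, with the number tested in brackets. Filled points passed an adjusted p under 0.05, bars are list medians, genes on several lists appear in each, and horizontal scatter is only for legibility. The filled points above 0 are CRABP2, DHRS3 and NR2F6, most of those below 0 are cofactors, and the point above 4 is TTR.

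The retinoid X receptor genes measured, RXRB and RXRG, did not pass. RXRG was the most abundant receptor gene measured here at 220 ± 24 FPKM (mean ± SD over the 6 libraries). Its level was 504 ± 71 CPM before puberty and 544 ± 45 CPM at puberty (log2 fold change 0.11, adjusted p = 0.58). RXRB had a log2 fold change of 0.13 (with adjusted p = 0.39), RARG of -0.17 (adjusted p = 0.59) and PPARD, a receptor gene that retinoic acid can also address, of 0.24 (adjusted p = 0.17). In each library RARA exceeded RARB by 4.80-fold to 6.64-fold in FPKM.

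Among 5 tested genes for other carriers and uptake, RBP3, which encodes the retinoid carrier between photoreceptors and their neighbours, fell 1.56-fold. Its levels were 51.6, 58.2 and 75.6 CPM in prepuberty and 44.4, 41.3 and 33.1 CPM in puberty, without overlap (log2 fold change -0.64, SE 0.16, adjusted p = 0.040, or -0.56 and 0.084 with length offsets). The call did not hold in any of the 6 fits without 1 library. RLBP1, which binds retinal in the visual cycle, was at 18.1 ± 4.9 and 17.4 ± 1.3 CPM (adjusted p = 0.88), SCARB1 had a log2 fold change of -0.12 (with adjusted p = 0.40) and LRP2 of 0.06 (adjusted p = 0.94).

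Of 13 tested enzymes that convert retinol, retinal, their esters or carotenoids, edgeR called 0, with 2 higher and 1 lower at an unadjusted p under 0.05 (29% of all tested genes) and 1 in each direction by DESeq2 (17.5%). RDH12, a retinal reductase gene known from photoreceptors, was among the most abundant genes of the pathway, at 1338 ± 225 CPM before puberty and 1549 ± 79 CPM at puberty (log2 fold change 0.21, adjusted p = 0.32). The genes of the unadjusted calls were all low. BCO1, which encodes the enzyme that splits beta-carotene into retinal, was at 2.67, 1.96 and 3.59 CPM against 4.22, 10.3 and 5.36 CPM (log2 fold change 1.27, adjusted p = 0.062). BCO2 had a log2 fold change of 0.82 (with adjusted p = 0.14). Both were highest in puberty replicate 2, and without that library their log2 fold changes were 0.81 and 0.51. RPE65, the isomerase of the visual cycle, was at 2.94 ± 2.1 and 0.802 ± 0.44 CPM (log2 fold change -1.86, adjusted p = 0.12).

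Retinoic acid breakdown was represented by 1 measurable gene of its family. CYP26B1 was at 3.41 ± 0.74 and 4.11 ± 1.6 CPM (log2 fold change 0.27, 95% interval -0.47 to 1.01, adjusted p = 0.62). CYP26A1 had 2 counts and CYP26C1 had 1 count over all 6 libraries, so neither could be tested. CYP2S1 and CYP1B1 differed by 0.49 and 0.55 on the log2 scale (adjusted p = 0.28 and 0.32). For the 4 tested genes of synthesis and breakdown edgeR called 0, as did DESeq2, and 0 had an unadjusted p under 0.05.

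Genes known from other species to respond to retinoic acid were listed to set beside CRABP2 and DHRS3, which are among them. RARB and STRA6 are on this list too, and neither passed by edgeR. RARB differed by 0.18 on the log2 scale (adjusted p = 0.54) and STRA6 by -0.02 (adjusted p = 0.92). Of the 15 tested besides the 9 genes, 0 rose and NRIP1 fell, with 3 higher and 2 lower at an unadjusted p under 0.05 (29% of all tested genes) and 1 in each direction by DESeq2 (17.5%). These counts were near the background. RARRES2, which encodes the secreted protein chemerin, was at 13.99, 16.6 and 15.8 CPM in prepuberty and 19.3, 38.5 and 26.2 CPM in puberty (log2 fold change 0.85, SE 0.23, adjusted p = 0.052). Its groups did not overlap, and its order of puberty libraries was that of DHRS3. Without puberty replicate 2, its highest library, the log2 fold change was 0.56 (adjusted p = 0.097). RARRES2 is short, at 489 nt, and with length offsets its log2 fold change was 0.65 (adjusted p = 0.11). The adhesion gene ICAM1 had a log2 fold change of 0.45 (with adjusted p = 0.085), the homeobox gene GBX2 of 1.09 from 0.741 CPM (adjusted p = 0.087) and TSHZ1 of -0.22 (adjusted p = 0.14). With length offsets that of TSHZ1, a gene of 8429 nt, was -0.02 (adjusted p = 0.92). HOXB1, HOXA2, HOXA4, HOXB4 and CDX1 had 0 counts in every library.

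Across the 6 libraries, the genes whose centred log2 CPM profile lay nearest to that of CRABP2 were TMEM158, BOK and IL17RC, with root mean square differences of 0.09, 0.11 and 0.12, where the median over 11692 named genes was 0.53. For DHRS3 they were SKAP2, CORO1A and TUBB2B (0.08, 0.08 and 0.10 against a median of 0.45). For CRABP1 they were TLE1, SLC16A4 and RASSF9 (0.10, 0.10 and 0.11 against a median of 0.42). These values describe likeness over the same libraries and carry no test.

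**Figure D5:**
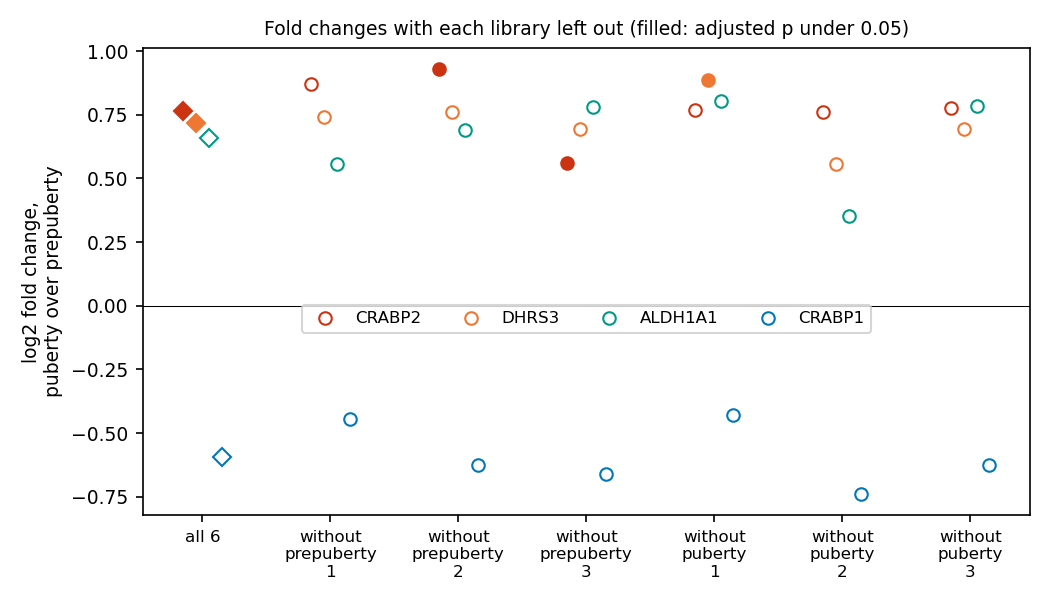
Log2 fold change of puberty over prepuberty (vertical axis) for CRABP2, DHRS3, ALDH1A1 and CRABP1 with all 6 libraries (diamonds) and with each library left out (circles), where filled symbols passed an adjusted p under 0.05. Directions stay the same in every fit, CRABP2 is filled in 2 of 6 reduced fits and DHRS3 in 1, and ALDH1A1 drops to 0.35 without puberty replicate 2.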

How the data were processed

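The deposited count table holds whole-number read counts per gene without normalization. The deposited FPKM values equalled those counts over listed gene length, scaled by a constant for each library (largest relative deviation 2.2e-14), as the authors' own normalization. The tools named, per the submitters' processing notes, are HISAT2 2.0.5, featureCounts 1.5.0-p3, fastp, DESeq2 1.20.0 and CASAVA 1.8, without roles or settings. The same notes name human builds although the identifiers are those of Ensembl for goat, and no build stands in the tables. All 9 genes overlapped the gene of the same symbol in a RefSeq table of assembly ARS1.2, and 0 overlapped another gene of the count table. The library kit was NEBNext Ultra RNA, which does not mark strand, per the labels' protocols.

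Counts were filtered with filterByExpr (minimum count 10), TMM-scaled and tested in edgeR 4.0.16 under R 4.3.3 (robust quasi-likelihood F test, no covariate), with Benjamini-Hochberg adjustment over all 16588 tested genes and calls at an adjusted p under 0.05. SEs are the log2 fold change over the root of F. CPM used TMM-scaled totals, and log2 CPM a prior count of 2. Length offsets were loess fits (span 0.3) of each library's log2 CPM deviation on log2 gene length. Other alternatives were RLE scaling, other filters, DESeq2 1.42.0, limma 3.58.1 (voom, and on log2 FPKM with pseudocounts of 1 and 0.1), a block for the replicate number and each library left out. Fold changes on the log2(FPKM + pseudocount) scale understate low genes. The scripts were tested on simulated data.

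The members, lists, gene pairs and tests were chosen with earlier results of these data known. Named are all 9 genes, called genes of the other retinoid lists with up to 4 more by smallest p, fixed partners such as TTR and the RXR and CYP26 genes, and for likeness the 3 nearest genes to each of the 3 members with the smallest p. Of the marker lists, called genes and up to 3 others were eligible, and those beside a result are given. RARG, the genes with 0 counts and the markers AGT, GFAP, PDGFRA, KL, KCNJ13, SLC5A5, OTX2 and SLC4A5 were named after their values were seen. Some genes of the lists are not reported here. Within a group, libraries differed by 17.4 to 38.8 times the chi-square per degree of freedom that sampling gives, so each was counted as its own sample.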

Additional observations from a re-analysis of the deposited data

How the results depend on the processing

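All 9 genes kept their direction in the 9 alternatives that use every library. With 1 library left out only STRA6 turned (log2 fold change -0.092 to 0.038). Of the 9 genes, 2 were called higher, against 1 with length offsets, limma on log2(FPKM + 0.1), limma-voom or no count filter, and 0 to 1 without 1 library. None was called lower in any alternative (edgeR, 1 at an unadjusted p under 0.05, 0 by DESeq2). CRABP2 lost its call without a count filter and on log2(FPKM + 0.1) (adjusted p = 0.061 and 0.051) and DHRS3 with limma-voom (adjusted p = 0.055). Of the other retinoid genes 1 was called higher, against 3 with DESeq2, 2 without a count filter, 0 with length offsets, limma-voom or limma on either log2 FPKM scale, and 0 to 1 without 1 library. Lower calls numbered 7, against 10 with DESeq2 and 5 with limma on either log2 FPKM scale. They numbered 1 with length offsets and 0 to 5 without 1 library. Over all genes 971 were higher and 935 lower, against 1425 and 1355 with DESeq2 and 450 and 419 with length offsets. Without 1 library 0 to 728 were higher and 0 to 540 lower. The cause of these shifts was not tested.

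With a replicate block, calls over all genes numbered 366 higher and 354 lower, and 0 of the 9 genes passed (CRABP2 adjusted p = 0.054, DHRS3 0.061). Of the other retinoid genes 1 was called higher and 2 lower with this block. Replicate numbers are not shown to pair the libraries, since deviations of same-numbered libraries correlated at 0.05, -0.10 and -0.10.

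Signs also turned for genes far from the threshold. LRP2 went from 0.062 to -0.018 on log2(FPKM + 0.1), -0.083 with limma-voom, -0.053 with the replicate block and -0.56 to 0.30 without 1 library. ALDH1A3 went to 0.089 and RLBP1 to 0.013 with length offsets. Without 1 library the ranges were -0.17 to 0.068 for ALDH1A3, -0.23 to 0.16 for RLBP1, -0.20 to 0.22 for RDH10 and -0.095 to 0.47 for CYP26B1. The difference in the log2 ratio of RARA to RARB ran from -0.15 to 0.068 without 1 library, and the other 4 ratios kept their sign. Low counts left 15 of the 66 other retinoid genes in the table untested.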
